A study of Mus musculus with 72 samples.

Results

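Blood of mice killed 1 day after 1 Gy of neutrons was compared directly with blood of mice killed 1 day after 4 Gy of x-rays. The arrays were chosen by their labels alone, which name 6 mice for the neutron group and 5 for the x-ray group, so that 11 of the 72 arrays of the series were used. All animals were male C57BL/6 mice, irradiated at 8 to 10 weeks of age, and each array holds the globin-depleted blood RNA of 1 mouse. The neutron beam was built to mimic the spectrum of an improvised nuclear device. It delivered some γ rays as well and ran at a lower dose rate than the x-ray machine, so radiation type, dose, dose rate and the γ share cannot be told apart. Both exposures were given to the whole body, and the pair of doses was picked because neutrons do more damage per unit of dose than photons. The 5 sham-irradiated controls of the same day, which sat in the holders of the neutron wheel with the beam off, serve as the background level. The study's methods do not say whether the x-ray mice were held in these holders. All blood was drawn by cardiac puncture, and the replicates are separate mice.

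Blood carries the cells that respond to radiation first. Resting B cells are among the most sensitive, T cells are somewhat less so, and mature granulocytes, platelets and red cells do not divide. In surviving cells the p53 protein switches on genes that arrest the cell cycle, such as Cdkn1a, or that promote death, such as Bax. The direct comparison asks which of these responses tell a neutron exposure from an x-ray exposure.

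Values are log2 intensities after subtraction of the median of the array, so that 1 unit is a doubling and a value below 0 is dimmer than the typical detected probe. Differences are neutrons minus x-rays. A gene was called where limma's unadjusted p was below 0.001 and its false discovery rate (Benjamini-Hochberg) also stayed below 0.05, over 10863 genes that passed filters on detection and on variation across the arrays of days 1 and 7. Over these genes the median difference was 0.10 with a median standard error of 0.32, and the 5th and 95th percentiles were -1.06 and 0.94.

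The sequences that carry the result are the probes of the 6 genes called between the groups, because each value below is the brightness of 1 such probe. The first 30 of the 60 bases are given 5′ to 3′ in lower case, in the order of their p-values, and the mm9 positions of the whole probes are those in the files.
Pla2g2d, chr4:138337867-138337926, plus strand: tacacctgcaaggtcatttgctgctgtttt
Fcer2a, chr8:3682343-3682402, minus strand: atctgggatgagtcctcccatcaagtttgc
ENSMUST00000192250, chr12:114654277-114654336, minus strand: tgtgctggcctcagaactgaacctcaacca
Cr2, chr1:196965532-196965591, minus strand: tggcctacagattgttcttgtgatatttca
ENSMUST00000177697, chr6:69581780-69581839, minus strand: gttacatgtacaggtaccagcagaagccag
Dapl1, chr2:59342824-59342883, plus strand: tctggagaaggctgctccaatgaagagggc
The first of the transcripts without a symbol is described in the files as an immunoglobulin delta chain, the heavy chain of IgD on naive B cells. The other is described as an immunoglobulin kappa light chain, and its probe may also catch related variable segments.

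Only 6 of 10863 genes were called, 0.0552% of those tested, and all 6 were higher after neutrons than after x-rays. Of these, 4 are genes of mature B cells, namely Fcer2a (the low-affinity IgE receptor CD23), Cr2 (the complement receptor CD21) and both immunoglobulin chains. The remaining pair are Pla2g2d, which encodes a secreted phospholipase A2, and Dapl1. Every one of them was far below the controls in both groups, and further below after x-rays. In whole blood, fewer cells of a type and less RNA per cell cannot be told apart from these arrays. The study reported normal total blood counts and no significant change in the make-up of white cells after irradiation.

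The levels of Pla2g2d after neutrons ran from -3.37 to -1.27 with a median of -2.28. After x-rays they were -5.57, -6.47, -5.53, -5.63 and -5.21, and in the controls 1.02 to 2.18. The 3 groups did not overlap. The probe was not well above background on any x-ray array, so fold changes against this group rest on readings near background. On the measured readings the level after neutrons was 9.76-fold higher (limma, adjusted p = 0.0102). Against the controls, Pla2g2d fell by 4.03 log2 units after neutrons (limma, adjusted p = 4.61e-05), and after x-rays its measured level was 159-fold lower.

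Fcer2a stood between -2.53 and -0.71 after neutrons, with a median of -1.63. In the x-ray group its levels were -4.24, -5.10, -4.13, -4.00 and -3.97, so that the lowest neutron mouse was above the highest x-ray mouse. The difference was 2.69 ± 0.33 (SE), or 6.46-fold, with an adjusted p of 0.0138 in limma. The probe was well above background on only 3 of the 5 x-ray arrays, and normexp background correction lowered the difference to 0.10.

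The immunoglobulin delta chain transcript ENSMUST00000192250 had levels of -0.51 to 1.45 after neutrons (median 0.16). After x-rays it read -2.35, -2.41, -2.53, -2.47 and -1.51. The difference of 2.50 ± 0.34 (SE) was 5.68-fold (limma, adjusted p = 0.0224), and the groups did not overlap.

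Cr2 ranged from -1.62 to 0.15 after neutrons (median -0.68). The x-ray mice had -2.58, -3.01, -3.02, -2.63 and -2.53, a tight group whose SD was 0.24 against 0.64 after neutrons. The difference was 2.03 ± 0.30 (SE; limma, adjusted p = 0.041). For the kappa chain transcript ENSMUST00000177697 the limma difference was 1.82 ± 0.27 (SE), and 4 of the 5 x-ray arrays had it well above background. Dapl1 had -0.44 to 1.07 after neutrons and -1.35, -1.93, -2.74, -1.98 and -1.15 after x-rays, a difference of 2.21 ± 0.34 (SE; limma, adjusted p = 0.0482). In both genes the groups did not overlap.

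**Figure D1:**
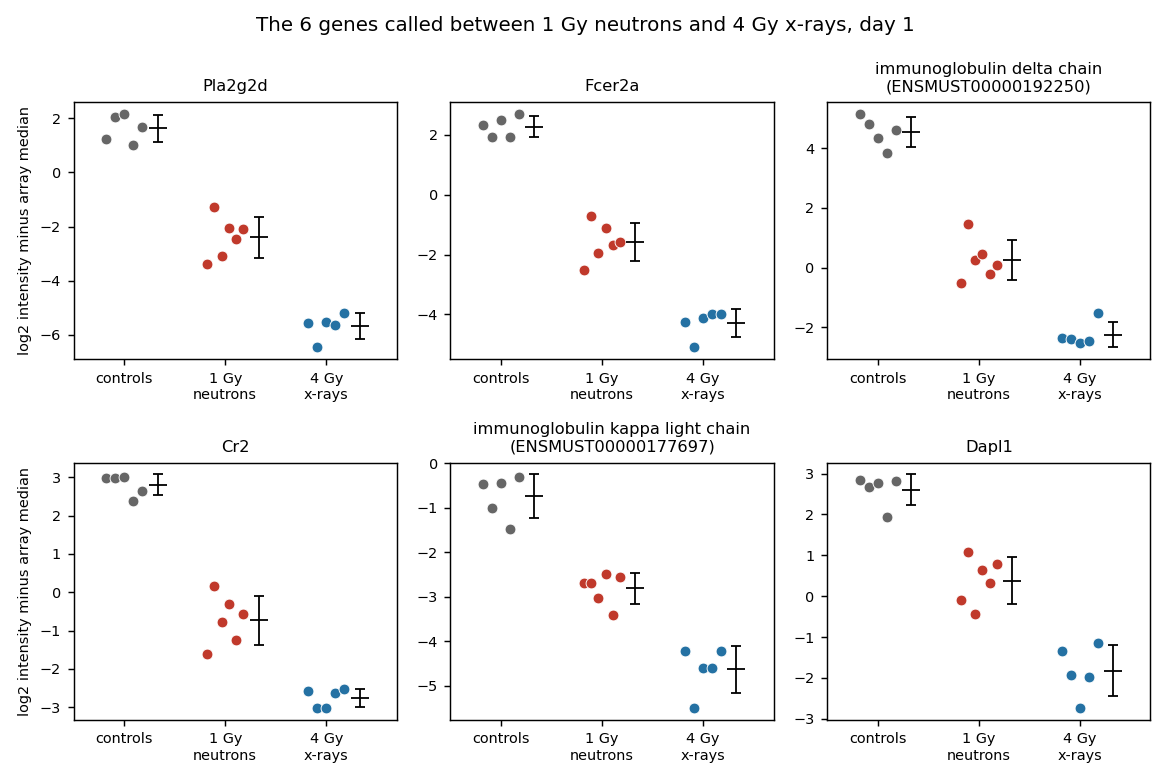
Level of each of the 6 called genes in every mouse (log2 intensity minus the median of the array), for 5 controls, 6 neutron mice and 5 x-ray mice, with the mean and SD beside the points. In each panel all neutron mice lie above all x-ray mice and below all controls, and only normexp correction turned a difference, to -0.02 for Pla2g2d and -0.36 for ENSMUST00000177697. Normexp correction also lowered the difference of Fcer2a to 0.10 and of Cr2 to 0.41.

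The calls were close to the threshold. Leaving out 1 mouse at a time changed their number to between 0 and 10, with no gene called without neutron mouse 6, 1 without x-ray mouse 1 or 3, 2 without neutron mouse 3 or 4 or x-ray mouse 2 or 4, and 3 without neutron mouse 2 or x-ray mouse 5. No gene was called when spots not well above background were set to missing (2118 at an unadjusted p below 0.05). Pla2g2d, dim on every x-ray array, could not be tested in that setting. Nor was any gene called after another background correction (normexp with an offset of 50, 454 at an unadjusted p below 0.05). The median processed intensity of the arrays was 66.8 to 157 after neutrons and 48.2 to 62.8 after x-rays, so the offset is of similar size. The part of this offset in the normexp results was not tested. Normexp correction turned the differences of Pla2g2d to -0.02 and of ENSMUST00000177697 to -0.36. It lowered those of Fcer2a to 0.10, Cr2 to 0.41, Dapl1 to 1.01 and the delta chain to 1.22.

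The scan days also differed between the groups. Neutron mice 1 to 4 were scanned on the day of all controls, neutron mice 5 and 6 on the same day as x-ray mouse 1, and x-ray mice 2 to 5 on another day. The groups shared no slide, not even on the shared scan day, so slide and radiation type cannot be told apart. On the shared day, with 2 neutron mice and 1 x-ray mouse, the difference was 3.29 for Pla2g2d, 2.61 for Fcer2a, 2.29 for the delta chain, 1.67 for Cr2, 1.24 for the kappa chain and 1.92 for Dapl1. None of the 6 was called with the scan date as a block, a fit whose difference rests on these 3 mice, and 1 other gene was called there. The median intensity of the arrays was 66.8 to 157 after neutrons and 48.2 to 62.8 after x-rays, without overlap, and the part of this difference in the results was not tested. The share of spots well above background was 60.8 to 63% after neutrons and 55.7 to 65.6% after x-rays.

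Many more genes differed by an unadjusted p below 0.05 than were called. These were 2004 genes (18.4%), with 1128 higher after neutrons (10.4%) and 876 lower (8.06%), and the lists below are read against these shares. At an unadjusted p below 0.001 there were 74 genes (0.681%), 62 of them higher (0.571%) and 12 lower (0.11%). The groups did not overlap for 144 genes with the neutron mice above (1.33%) and for 67 with them below (0.617%). The next genes by p-value included Chst3, a sulfotransferase for chondroitin chains, with -1.58 to 0.36 after neutrons and -3.01 to -1.92 after x-rays (difference 2.08 ± 0.35 SE, limma, adjusted p = 0.092). H2-Eb2, a class II gene, differed by 2.28 ± 0.42 (SE), although only 2 of the 5 x-ray arrays had its probe well above background and normexp correction turned the difference to -0.36.

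**Figure D2:**
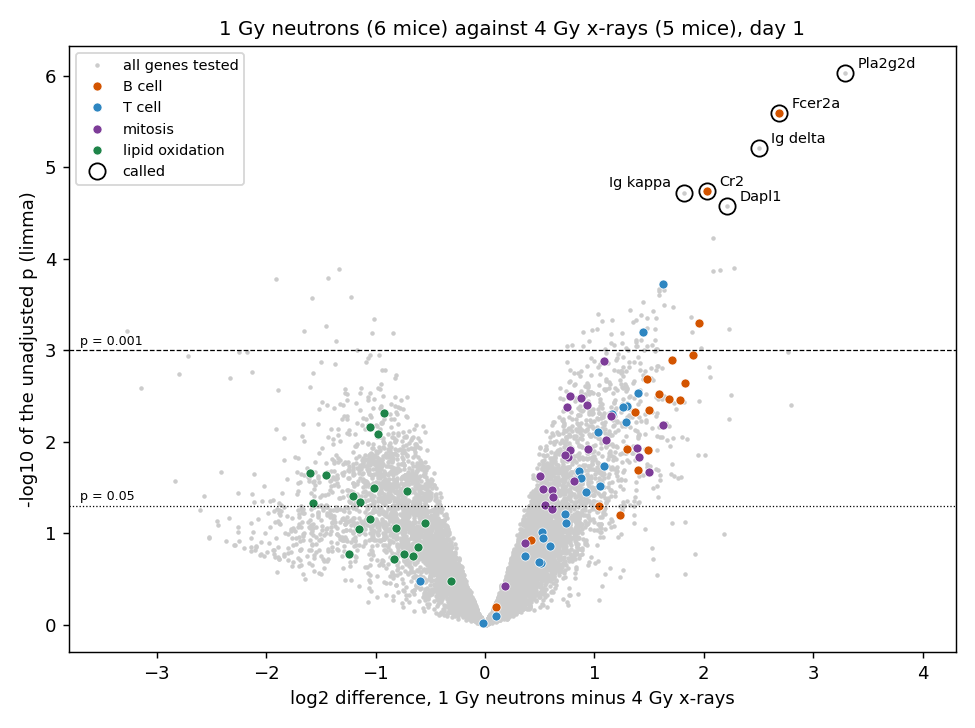
Log2 difference of each of the 10863 genes tested (horizontal axis) against the -log10 of its unadjusted limma p (vertical axis), with 4 gene lists in colour and the 6 called genes circled. The B cell, T cell and mitosis lists lie mostly to the right, higher after neutrons, and the lipid oxidation list lies to the left. Under normexp correction the mitosis median turned to -0.26.

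The B cell list had the highest median difference of the gene lists. Of 19 genes tested, 15 were higher after neutrons at an unadjusted p below 0.05, none was lower, and all 19 differences were above 0, with a median of 1.5 against 0.10 over all genes. Under normexp correction 10 were higher and the median was 0.89, against -0.20 over all genes. The mean level of the list was -0.61 to 1.19 after neutrons (median 0.98) and -1.36, -1.29, -0.28, -1.09 and -0.07 after x-rays. Only neutron mouse 1 fell inside the range of the x-ray mice. The controls had 2.79 to 3.63, so both groups were below every control.

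Among signalling parts of the B cell receptor, Cd79a had 1.40 to 3.36 after neutrons and -0.22, 0.39, 1.94, 0.28 and 1.75 after x-rays. Its difference was 1.90 ± 0.45 (SE; limma, adjusted p = 0.144), and the groups overlapped. Its partner Cd79b differed by 1.68 ± 0.47, short of the threshold after adjustment. The transcription factor Ebf1, which fixes B cell identity, differed by 1.96 ± 0.42 at an unadjusted p of 5.05e-04 in limma, and by -0.06 under normexp correction.

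The survival receptor Tnfrsf13c, through which B cells receive the cytokine BAFF, differed by 1.48 ± 0.38, and Vpreb3, a gene of the B lineage, by 1.71 ± 0.41 with no overlap between groups. By contrast, the difference of Cd22, an inhibitory receptor, was 0.42 with a 95% interval from -0.12 to 0.96, and that of Cd72, another inhibitory receptor, was 0.10 with an interval from -0.35 to 0.55. Cd72 was about equally far below the controls in both groups, at -2.09 after neutrons and -2.19 after x-rays.

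All 19 B cell genes were called lower than the controls after neutrons and all 19 after x-rays, with median differences of -2.61 and -4.16. These comparisons use the same controls. Called lower genes made up 10.5% of all genes after neutrons and 18.6% after x-rays. On the shared scan day the median difference of the B cell list between the groups was 2.16, larger than over all mice.

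The 76 immunoglobulin transcripts tested all had estimates above 0, 56 of them higher after neutrons at an unadjusted p below 0.05, with a median difference of 1.21 and a range of 0.22 to 2.50. In 9 of them the groups did not overlap with the neutron mice above. These probes share variable segments, so they are not independent of each other. On the shared scan day their median was 0.72.

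Class II molecules, which present antigen on B cells and other presenting cells, were also higher after neutrons. Of 10 genes, 8 passed an unadjusted p below 0.05 and the median difference was 1.15. H2-Oa and H2-Ob, chains of a peptide-loading modulator found mainly in B cells, differed by 1.54 ± 0.32 and 1.45 ± 0.34. The more broadly expressed H2-Ab1 and H2-Eb1 differed by 0.98 ± 0.45 and 0.89 ± 0.43. Other members lay between, with 1.40 for Cd74, 1.27 for H2-Aa, 1.02 for H2-DMa and 1.01 for H2-DMb1. On the shared scan day the order was the reverse, with 2.03 for H2-Ab1 and 1.98 for H2-Eb1 against 1.66 for H2-Oa and 1.78 for H2-Ob. The mean level of the list overlapped between groups, with 0.52 to 2.58 after neutrons and -0.11, -0.05, 0.98, 0.75 and 1.24 after x-rays. The number of members at an unadjusted p below 0.05 ranged from 4 to 10 with 1 mouse left out, the lowest without x-ray mouse 2, and the median on the shared scan day was 1.94.

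**Figure D3:**
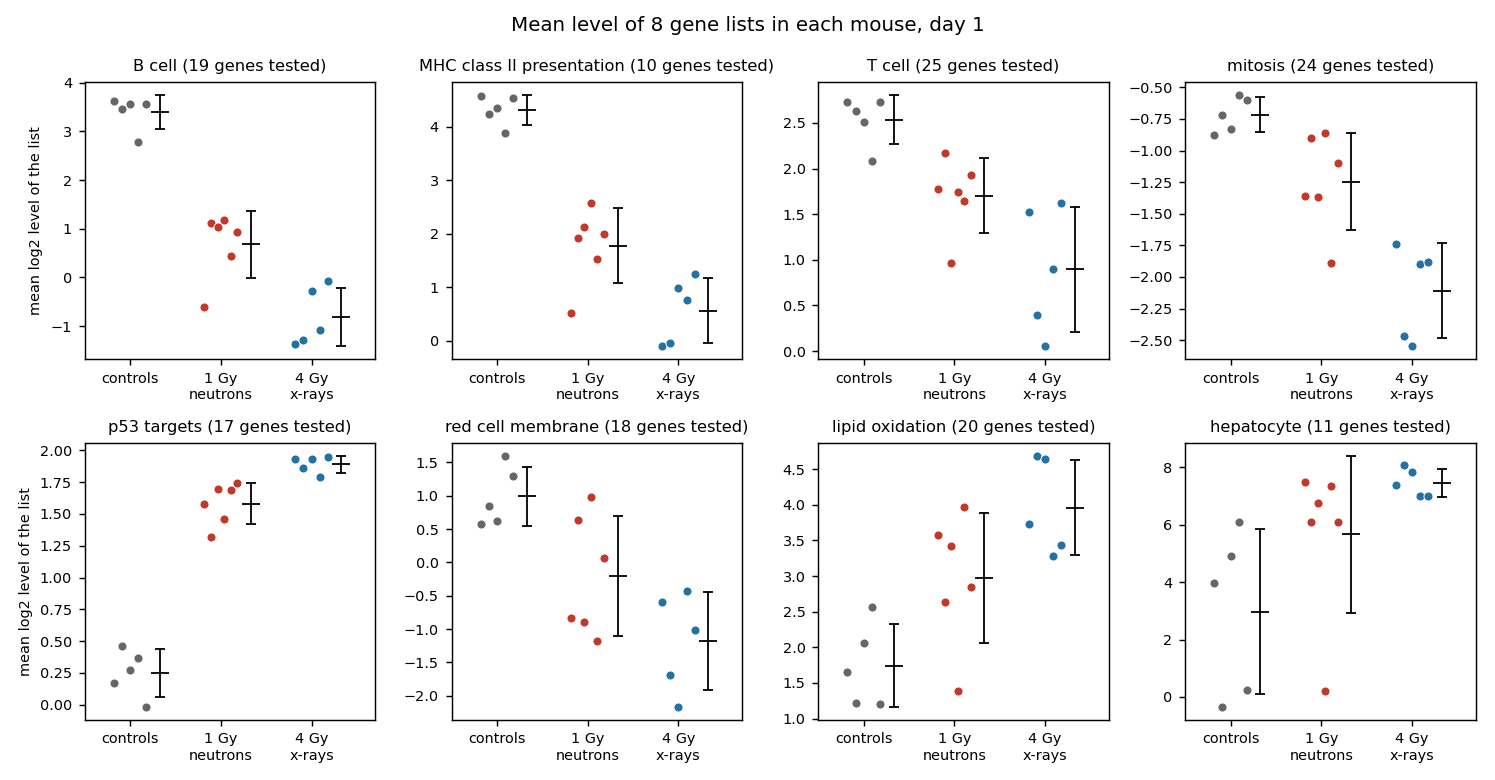
Mean log2 level of the tested genes of 8 lists in each mouse, for 5 controls, 6 neutron mice and 5 x-ray mice, with the group mean and SD beside the points. The p53 target levels of both irradiated groups lie far above the controls, and in the hepatocyte panel neutron mouse 4 stands apart at 0.22. Under normexp correction the mitosis median turned to -0.26 and the red cell membrane median to -0.02.

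T cell genes differed less. Of 25 tested, 14 were higher after neutrons at an unadjusted p below 0.05 and none was lower, with a median difference of 0.87. Cd8a, the coreceptor of cytotoxic T cells, stood at -1.50 to -0.26 after neutrons (median -0.57) and at -1.74, -2.51, -3.10, -2.64 and -1.65 after x-rays. The groups did not overlap, and the difference was 1.63 ± 0.31 (SE; limma, adjusted p = 0.141). Bcl11b, a factor that keeps T cell identity, also showed no overlap, with 1.44 ± 0.32.

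The homing receptor Ccr7 differed by 1.40 ± 0.38, and the transcription factors Tcf7 and Lef1 by 1.26 ± 0.36 and 1.29 ± 0.39. Of the receptor complex, Cd3d differed by 0.87 ± 0.34 and Cd3e by 0.53 ± 0.31, and 20 of 32 T cell receptor transcripts were higher at an unadjusted p below 0.05 (median 0.87). Cd4 went the other way in its estimate, at -0.59 with an interval from -1.87 to 0.69. Against the controls, 9 of the 25 T cell genes fell after neutrons and 17 after x-rays, where 10.5% and 18.6% of all genes did. Cd4 rose by 2.42 after x-rays.

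The number of T cell genes higher at an unadjusted p below 0.05 was 8 without x-ray mouse 3 and at most 17 with another mouse left out. On the shared scan day the median of the T cell list was 0.15 and that of the receptor transcripts 0.31, while Cd8a kept a difference of 1.25. The mean list level of x-ray mouse 1, the x-ray mouse of that day, was 1.52, and x-ray mouse 5, scanned on another day, had 1.62. The other x-ray mice had 0.40, 0.05 and 0.90, and the neutron mice 0.96 to 2.17.

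Chemokine receptors, which steer lymphocytes and monocytes through tissue, included 6 of 14 genes higher after neutrons at an unadjusted p below 0.05, and 3 without x-ray mouse 2. The largest was Ccr6, which is carried by B cells, with -1.55 to 0.53 after neutrons and -1.92, -3.33, -2.67, -1.54 and -1.99 after x-rays (1.89 ± 0.42 SE). Cxcr5, the receptor that leads B cells into follicles, differed by 1.49 ± 0.51. Cxcr5 was 2.66 and Ccr6 1.20 higher on the shared scan day.

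No gene of the 14 on the natural killer and cytotoxic list passed an unadjusted p below 0.05 (median 0.17), nor did any of 18 platelet genes (median 0.22). Of 14 mature neutrophil genes 1 did, Wfdc21 at -1.37 ± 0.54, and S100a9, a calcium-binding protein of neutrophils, differed by -0.15 ± 0.27 with a sign that turned under quantile, normexp and spike-in scaling. Among 13 monocyte genes, 5 were higher and 1 was lower, with 1.19 ± 0.34 for Ace and 1.07 ± 0.33 for Treml4, both typical of patrolling monocytes, and 0.89 ± 0.33 for Ccr2 of inflammatory monocytes. The monocyte median was 0.72, and 3 genes were higher without x-ray mouse 2. Of 11 neutrophil granule genes, 1 was higher and 2 were lower, with a median of 0.19 that was -0.14 without neutron mouse 4. Chil3, a chitinase-like protein, had 2.51 to 6.02 after neutrons, the highest in neutron mouse 4, and differed by 2.23 ± 0.67, while Lcn2, an iron-sequestering protein, differed by -1.29 ± 0.49. Only 4 of the 14 natural killer genes had a 95% interval within 1 log2 unit of 0.

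Genes of mitosis were mostly higher after neutrons. Of 24 tested, 21 were higher after neutrons at an unadjusted p below 0.05, none was lower and the median was 0.78, although normexp correction turned this median to -0.26, against -0.20 over all genes. The kinase Plk1, which drives entry into mitosis, had -2.03 to -1.10 after neutrons and -2.23, -2.98, -3.29, -2.58 and -2.05 after x-rays, with no overlap (1.09 ± 0.27 SE, limma, adjusted p = 0.148). Normexp correction turned the Plk1 difference to -0.13. Nusap1, which bundles spindle fibres, differed by 1.63 ± 0.50, and the proliferation marker Mki67 by 1.15 ± 0.34. Members such as Nusap1 and Cdc25b were picked out by the study on these samples. The count of 21 is therefore not wholly independent evidence.

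Against the controls, Plk1 differed by -0.05 after neutrons and by -1.15 after x-rays, Aurka by -0.22 and -1.15, and Ccnb1 by 0.29 and -0.49. In all, 5 of the 24 genes fell after neutrons and 15 after x-rays, where 10.5% and 18.6% of all genes did. After neutrons 1 rose, where 6.96% of all genes did. The median difference between the groups was 0.26 on the shared scan day.

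Some genes of the mitosis list, such as Nusap1, are also among 18 genes that the study picked out on these samples. The direction of these 18 genes, many of the cell cycle, is not independent evidence. Of these, 10 were higher after neutrons at an unadjusted p below 0.05 and none was lower (median 0.73), and 6 without x-ray mouse 3. Cdc25b, a phosphatase that releases the brake on mitosis, differed by 1.39 ± 0.47, Ccna2 by 1.41 ± 0.50 and Ube2c by 1.5 ± 0.57. On the shared scan day these were 0.40, 0.39 and 0.04. The estimates of all 18 lay between 0.29 for Eif5 and 1.63 for Nusap1.

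Of 25 DNA replication genes tested, 5 were higher and 3 were lower at an unadjusted p below 0.05, and 2 were higher without x-ray mouse 2 or 3. The share lower was near that of all genes. Mcm5, a subunit of the replicative helicase, had -0.61 to -0.20 after neutrons and -1.07, -1.86, -1.83, -1.53 and -1.06 after x-rays, with no overlap (1.03 ± 0.22 SE, limma, adjusted p = 0.141). Pold1, the catalytic subunit of polymerase delta, differed by 0.78 ± 0.20, also with no overlap. Lower after neutrons were Gmnn, which blocks relicensing of origins, at -0.95 ± 0.25, thymidine kinase Tk1 at -1.55 ± 0.56 and Mcm10 at -1.88 ± 0.85.

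Of 17 targets of p53 tested, none was called, and 4 were lower after neutrons at an unadjusted p below 0.05 (23.5%, against 8.06% of all genes). That count was 2 without x-ray mouse 2 or 3 and 1 with the hepatocyte level as a covariate. In all, 10 estimates were below 0 and 7 above, and the 95% interval of the difference lay within 1 log2 unit of 0 for 10 of them. The median difference was -0.15, a sign that turned under centring on the 75th percentile (0.02), normexp correction (0.05) and spike-in centring (0.20).

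Cdkn1a, the cell cycle inhibitor p21, showed the largest rise against the controls in both groups, 4.20 after neutrons and 4.15 after x-rays. Its levels were -0.32 to 1.32 after neutrons (median 1.06), 0.48, 0.26, 0.78, 0.68 and 0.96 after x-rays, and -4.20 to -2.87 in the controls. The x-ray mice lay wholly within the range of the neutron mice, and the difference was 0.05 with an interval from -0.69 to 0.78. Phlda3, which restrains Akt signalling, differed by -0.03 (-0.59 to 0.53), Ccng1 by 0.08 (-0.37 to 0.52), Bax by -0.15 (-0.59 to 0.28) and Zmat3 by 0.03 (-0.42 to 0.47).

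The 4 targets lower at an unadjusted p below 0.05 were Plk3 at -1.17 ± 0.39, Rps27l at -0.87 ± 0.33, Dglucy at -0.64 ± 0.25 and Plk2 at -0.61 ± 0.23, all with overlap between the groups. Each rose against the controls in both groups, Plk3 by 1.54 after neutrons and 2.7 after x-rays. The lowest estimate was that of Perp, a membrane protein of the death response, at -1.35 with a wide interval from -3.00 to 0.30, and neutron mouse 4 had its lowest level, -1.53. Ei24 differed by -0.59 (-1.30 to 0.12), Ddit4 by -0.49 (-1.40 to 0.42) and Aen by -0.44 (-0.95 to 0.07). Above 0 were Bbc3 at 0.08 (-0.46 to 0.61), Gadd45a at 0.18 (-0.61 to 0.96), Psrc1 at 0.29 (-0.28 to 0.86) and Sesn1 at 0.32 (-0.16 to 0.81). Sesn1 fell against the controls in both groups, by 1.00 and 1.32. The mean level of the list was 1.32 to 1.74 after neutrons and 1.93, 1.86, 1.93, 1.79 and 1.95 after x-rays, against -0.02 to 0.46 in the controls. These list levels did not overlap between the radiation types.

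**Figure D4:**
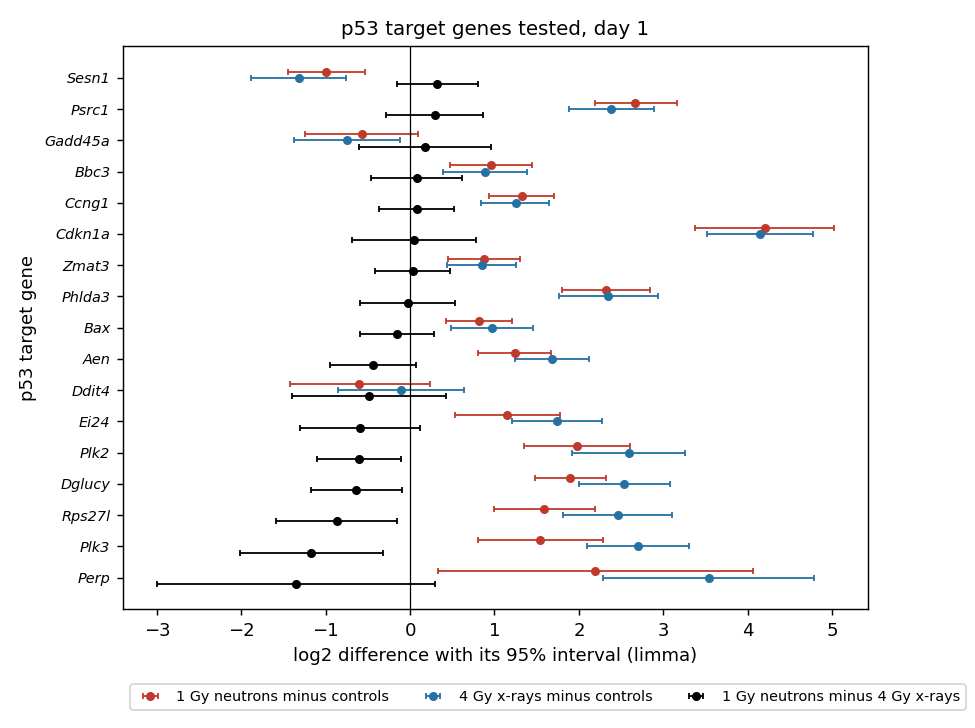
Log2 differences with 95% intervals for the 17 p53 targets tested, each as neutrons minus controls, x-rays minus controls and neutrons minus x-rays (limma). The first pair of intervals overlaps for most genes, Cdkn1a reaches 4.20 and 4.15, and most black intervals cross 0, with only Plk2, Dglucy, Rps27l and Plk3 wholly below it.

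DNA repair genes were few among those tested, 13 of 40, mostly because of the filter on variation. Without that filter 38 were tested, and without the filter on detection 17. Of the 13, 6 were higher and 2 lower after neutrons at an unadjusted p below 0.05. The balance depended on the genes tested and the scaling, with 2 higher and 4 lower of 19 (median 0.04) under quantile normalization, and 10 higher and 4 lower of 38 (median 0.07) without the filter on variation. The damage kinase Atm differed by 0.63 ± 0.19, the end-joining kinase Prkdc by 0.61 ± 0.19 and the lesion-recognition factor Ddb2 by 0.50 ± 0.17, each with no overlap between the groups. Normexp correction turned the list median of 0.48 to -0.57 and the Atm difference to -0.52. All 3 fell against the controls, Atm by 1.21 after neutrons and by 1.83 after x-rays.

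Of 24 interferon response genes tested, 1 differed at an unadjusted p below 0.05, Mx1 at 0.64 ± 0.29, and the interval lay within 1 log2 unit of 0 for 13. This count rests on x-ray mouse 4, whose list level was 3.44 where the other x-ray mice had 1.81 to 2.54. Without it 7 genes were higher and 1 was lower, with a median of 0.39 against 0.15, and 4 of 6 Schlafen genes were higher against 0. Against the controls, 17 of the 24 rose after neutrons and 15 after x-rays, where 6.96% and 16.5% of all genes did. Ifit3, an antiviral protein, rose by 3.91 and 3.66 and differed by 0.25 ± 0.34 between the groups. Slfn4, of the Schlafen family, rose by 4.62 and 4.04 and differed by 0.58 ± 0.48, with an interval from -0.45 to 1.62.

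Transcripts of the red cell membrane, which in blood come from young red cells still holding RNA, were higher after neutrons for 7 of 18 genes and lower for 1 at an unadjusted p below 0.05. The anion exchanger Slc4a1 differed by 1.95 ± 0.68 and ankyrin Ank1 by 2.80 ± 0.80 (-0.07 under normexp correction), both with overlap between the groups. Dmtn went the other way in its estimate, at -0.89. Without x-ray mouse 3, 3 of the list's genes were higher. The median of 1.07 turned to -0.02 under normexp correction and was 0.09 on the shared scan day. Against the controls, 4 of these genes fell after neutrons and 11 after x-rays, where 10.5% and 18.6% of all genes did. The list of heme synthesis and erythroid factors, also with 18 genes tested, showed no such shift. Its median was -0.06, with 9 estimates above 0 and 9 below. Of them, 4 were higher and none was lower at an unadjusted p below 0.05, and none was higher without neutron mouse 2.

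Lower after neutrons were genes of fat oxidation and sterol synthesis. Of 20 lipid oxidation genes, 10 were lower at an unadjusted p below 0.05, all 20 estimates were below 0 and the median was -1.0. The count was 3 without x-ray mouse 2, 4 without x-ray mouse 3 and 5 without neutron mouse 2. Acaa1a, a peroxisomal thiolase, had 4.62 to 5.49 after neutrons and 5.71, 6.56, 6.51, 5.71 and 5.58 after x-rays, with no overlap (-0.92 ± 0.27 SE, limma, adjusted p = 0.176). Of 21 sterol genes, 9 were lower and 1 was higher, with -1.52 ± 0.53 for the sterol sensor Insig1 and -1.40 ± 0.50 for Msmo1. The count lower was 6 without x-ray mouse 3 and 14 without neutron mouse 1.

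Other large differences of this sign were Acot3, a peroxisomal thioesterase, at -1.43 ± 0.27 and Coq10b, of coenzyme Q function, at -1.33 ± 0.24. Por, the electron donor of the cytochrome P450 enzymes, differed by -1.36 ± 0.31. Against the controls, 18 of the 20 lipid oxidation genes rose after x-rays, where 16.5% of all genes did, and 2 after neutrons, a share near the 6.96% of all genes. Among acute phase genes, Hp, which binds free haemoglobin, had 6.39 to 8.78 after neutrons and 9.16, 9.78, 9.57, 9.44 and 8.82 after x-rays, with no overlap (-1.24 ± 0.39 SE). Saa1, serum amyloid A, was at 5.47 to 8.82 after neutrons and 9.38, 9.82, 9.59, 9.45 and 8.52 after x-rays, and it rose against the controls in both groups, by 6.33 and 7.74.

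These genes must be read beside transcripts of the liver, which blood cells should lack. On the arrays of both groups all 42 genes of a hepatocyte list were well above background in every mouse but neutron mouse 4, where 33 were. The mean level of the whole list was 6.46, 4.80, 5.91, -2.48, 6.32 and 4.98 in neutron mice 1 to 6, and 6.29, 7.15, 7.06, 5.83 and 5.99 in the x-ray mice. The controls had 2.61, -2.61, 3.53, 4.78 and -1.67. Alb, which encodes albumin, was at 8.72 to 9.65 in 5 neutron mice, at 1.09 in neutron mouse 4 and at 9.46 to 10.48 after x-rays.

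Only 11 of the 42 hepatocyte genes passed the filters, all with estimates lower after neutrons (median -1.80) and none at an unadjusted p below 0.05. Without neutron mouse 4 this median was -0.69 and 5 passed. The lipid oxidation median moved from -1.0 to -0.69 and 6 of its genes passed, the sterol median from -0.88 to -0.55 with 8 lower, and the acute phase median from -1.32 to -1.02. With the hepatocyte level as a covariate the lipid oxidation median was -0.42 and the sterol median -0.40. The B cell median was 1.40 there with 14 genes higher. Other lists lost more under this covariate, with 4 class II genes higher instead of 8 (median 0.77), 9 T cell genes instead of 14 (0.78), 13 mitosis genes instead of 21 (0.66) and 1 red cell membrane gene instead of 7 (0.50). On the shared scan day the medians were -0.57 for the hepatocyte list, -0.26 for lipid oxidation and -0.77 for sterol synthesis. The part of liver RNA in the lower genes was not tested beyond these values.

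**Figure D5:**
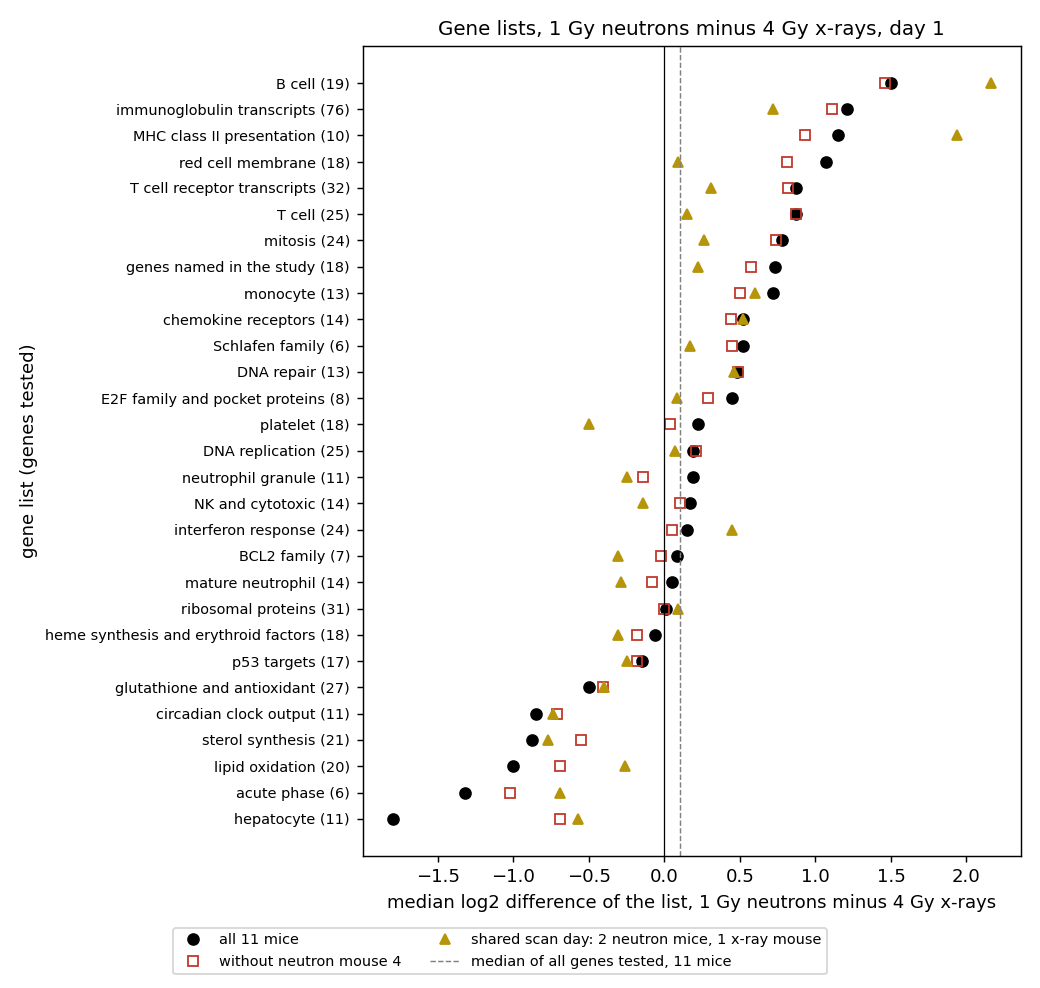
Median log2 difference of each gene list with at least 6 genes tested, over all 11 mice, without neutron mouse 4, and on the shared scan day with 2 neutron mice and 1 x-ray mouse. The B cell and class II lists are at 0.93 or more in all 3 readings, while the T cell and red cell membrane lists drop to 0.15 and 0.09 on the shared day. Under normexp correction the mitosis and red cell membrane medians lie below 0.

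For 4615 of 10863 genes (42.5%) the 95% interval of the difference lay within 1 log2 unit of 0, so that a doubling either way fell outside it. All 31 ribosomal protein genes tested were among these, with a median difference of 0.01 and a range of -0.42 to 0.53. This median depended on the scaling, at 0.40 under normexp correction and 0.29 under spike-in centring. Quantile normalization gave 0.38, with 10 of 23 genes higher after neutrons at an unadjusted p below 0.05. The other genes had an interval that reached beyond 1 log2 unit, among them the 6 called genes, and 10.3% of all genes had an estimate beyond it.

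Against the shared controls, 1900 genes were called after 1 Gy neutrons (17.5%), 756 higher (6.96%) and 1144 lower (10.5%). After 4 Gy x-rays 3813 were called (35.1%), 1790 higher (16.5%) and 2023 lower (18.6%). A gene called in one of these comparisons and not in the other is not shown to differ between the radiation types, and the direct comparison gave the 6 genes above.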

How the data were processed

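Blood RNA of single mice was hybridised to 1-colour Agilent mouse 4x44K arrays. Per the file headers, the deposited intensities are Agilent Feature Extraction 12.0.2 processed signals, background-subtracted by that software, with probe positions in mm9. The series' table of processed values was not used. Intensities were taken to log2 and centred on each array's median of detected probes. Outlier and non-uniform spots were left out, as were probes flagged or dim on 25% or more of the 56 arrays of days 1 and 7, which left 19808 probes. Probes had to differ 1.5-fold from their median on 20% of these arrays, which left 12556, and the brightest probe per gene gave 10863 genes. Of 39429 probes, 28330 were named by accession through a RefSeq gene table.

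Each pair of groups was fitted alone with limma 3.58.1 in R 4.3.3 (lmFit and eBayes, 2-sided, Benjamini-Hochberg over all genes). The number of arrays limits the precision. On simulated data with 10863 genes, 22% of genes changed by 1 log2 unit, 76% by 2, 92% by 3 and 100% by 4 were called, with 12 false calls. There 50 genes were changed at each size, the noise was independent between genes, and no scan day or slide effect was added. The real data gave fewer calls, which makes the FDR limit stricter, so these shares cannot be carried over to them. The groups, gene lists and members were chosen with earlier results of these data known. The rule for named genes took all called genes, the largest non-overlapping differences at an unadjusted p below 0.001, each list's brightest and lowest-p members, all p53 targets and all genes the study picked. It also took a few genes by name, such as Saa1. The text describes all called genes and all p53 targets, but only some of the other genes under the rule, and a few list members outside it that were chosen after their values were seen. Alternatives varied scaling, background correction, filters, probe averaging, the variance model, scan date, replicate number, slide, liver level, thresholds and single mice. Slide was added after seeing the data. Some list members are not reported here.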

Additional observations from a re-analysis of the deposited data

Results flagged for a closer look

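Of 74 sets of values checked for 1 mouse far from the rest of its group, 6 held one, where chance flags about 1 in 20 groups. Neutron mouse 4 accounted for 3 of them. Its mean level was 0.22 over the hepatocyte genes tested, with the nearest neutron mouse at 6.11, and -2.48 over the whole hepatocyte list, with the nearest at 4.80. It was the highest neutron mouse for the neutrophil granule list, at 3.78 against 2.35. X-ray mouse 4 was likewise highest in its group for that list, at 3.80 against 1.94. X-ray mouse 5 had the highest level of the immunoglobulin delta chain transcript ENSMUST00000192250, -1.51 against -2.35. X-ray mouse 2 had the lowest level of Fcer2a, -5.10 against -4.24.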

How the results depend on the processing

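Of the comparison between the radiation types, 6 genes were called. No gene was called with normexp correction, with dim spots set to missing, or with filters set on the compared arrays alone (0 in each). Pla2g2d could not be tested with dim spots missing or with filters on the compared arrays. There was 1 with scan date as a block, 2 with the liver level as a covariate, 74 without the limit on FDR, 210 with all groups of day 1 in 1 fit and 340, all higher, with spike-in centring. Slide as a random block, chosen after seeing the data, gave 1473 at a consensus correlation of -0.22, though no slide held both groups. Leaving out 1 mouse gave 0 to 10. The replicate block gave 0. Replicate numbers did not pair the mice, since 2 of 5 same-number correlations were above 0.1 and 1 mouse correlated best with its own number. Normexp correction reversed Pla2g2d (-0.02) and ENSMUST00000177697 (-0.36) and left Fcer2a at 0.10 and Cr2 at 0.41. The cause of these changes was not tested.

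Genes with an interval within 1 log2 unit numbered 4615, against 2477 with normexp correction, 9664 without the variation filter, 9417 without the detection filter, 1094 with filters on the compared arrays and 217 with the scan date block, and 3694 to 4987 with 1 mouse left out. Calls between neutrons and controls numbered 1900, against 304 with normexp correction, 1089 with the scan date block, 910 within the shared scan date, 641 with the replicate block, 5128 with FDR alone, and 1097 (without control mouse 5) to 2252 with 1 mouse left out. Calls between x-rays and controls numbered 3813, against 1312 with normexp correction, 626 with the liver level, 6930 with FDR alone, and 2831 to 3747 with 1 mouse left out. The share of lower calls after neutrons was 60.2%, but 77.8% with 75th percentile and 12.4% with spike-in centring, and after x-rays 53.1%, 72.6% and 34.1%. The median of all genes moved from 0.10 to 0.23, 0.34 and -0.20 with 75th percentile centring, spike-in centring and normexp correction.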

Other observations

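Genes of the circadian clock's output, a list chosen after their values were seen, included some of the largest differences below 0. Usp2, a ubiquitin protease under clock control, had -3.58 to 1.25 after neutrons (median -0.75), 2.83, 2.27, 3.22, 1.58 and 1.92 after x-rays and -3.68 to -2.30 in the controls. The radiation groups did not overlap, and the difference was -3.27 ± 0.72 (SE; limma, adjusted p = 0.141). Dbp, a clock-driven transcription factor, differed by -2.25 ± 0.53 and its relative Tef by -1.65 ± 0.36, while Arntl, a core activator of the clock, differed by 0.88 ± 0.24, all without overlap. On the shared scan day these differences were -3.62 for Usp2, -1.78 for Dbp, -1.27 for Tef and 0.63 for Arntl. The hour of blood collection is not given in the sources used here.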
